A study of Mus musculus with 8 samples.

Results

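The Hox cluster genes encode homeodomain transcription factors and lie in 4 clusters, Hoxa, Hoxb, Hoxc and Hoxd. This family was chosen with earlier results of these data known. Its genes were taken here by name alone, as every gene whose symbol is a Hox cluster letter followed by a number. This gave 39 genes with 46 named probes, of 22883 genes named on the array. Each gene was represented by the brightest of its probes. Of the 39 genes, 33 passed the filter on dim probes and were tested among 19023 genes.

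RNA came from TEC100.4, an immortalized mouse line whose labelled origin is the thymic cortical epithelium. Derived lines carried a doxycycline-inducible mutant of the transcription factor TFII-I (gene Gtf2i), in 1 line the δ isoform and in the other the β isoform. The 4 groups of 2 one-colour arrays were the δ mutant line with doxycycline for 24 h, the δ mutant line without doxycycline, the β mutant line with doxycycline for 24 h and the β mutant line without doxycycline. The genotype label of the untreated samples names the wild type isoform while their titles name the uninduced mutant line, and the titles set the groups. The sources used here do not say whether each line is 1 clone, and no doxycycline-treated cells without a mutant were analysed here. Since no label says whether the arrays of a group stand for separate cultures, the p-values cover no more than the spread seen between these arrays, and that spread may be technical.

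Between 39512 and 40698 probes were well above background on the untreated arrays and between 43345 and 45080 on the doxycycline arrays, and no spot was saturated. Slide row went with treatment and slide column with line, so position on the slide cannot be told apart from either. On δ untreated replicate 1, 77 of 1008 tiles of 8 by 8 spots deviated by over 0.3 on the log2 scale, 65 of them darker, against at most 7 tiles on any other array. The brightest probes of Hoxa5, Hoxa9 and Hoxc9 lay in that damaged area, and their results are given with and without that array. Of 9 markers of cortical thymic epithelium, 5 were well above background on all 8 arrays (Prss16, Ctsl, Foxn1, Cxcl12 and Ccl25), while Psmb11 and Enpep were so on none. All 8 markers of fibroblasts and mesenchyme were well above background on all 8 arrays, with summed linear signals of 517 to 541 in the δ line and 475 to 594 in the β line, as multiples of each array's 75th percentile. The 4 epithelial markers (Krt8 and Krt18 on every array, Cdh1 on some, Epcam on δ untreated replicate 1 alone) summed to 9.82 to 10.2 in the δ line and 23.1 to 26.4 in the β line. The 5 medullary markers (Krt5, Krt14 and Aire on every array, Fezf2 on none) summed to 2.68 to 3.46 in the δ line and 27.7 to 36.2 in the β line. The medullary difference was that of Krt14, whose lowest β array read 4.74 and highest δ array 1.35 (log2, relative to the array's 75th percentile). Krt5 and Aire overlapped between the lines, so the medullary list did not shift as a whole. Krt8 and Krt18 each read lower on every δ array than on any β array. Krt8, Krt18 and Krt14 thus moved with the line, as many Hox genes did, and their part in the Hox results was not tested.

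In the embryo, Hox genes are switched on in the order in which they lie along each cluster, so that genes with low numbers mark the head and neck and genes with high numbers mark the trunk and tail. Adult epithelia and fibroblasts keep much of the Hox pattern of the place they arose in, and Polycomb and Trithorax proteins hold clusters off or on. The thymus arises from the third pharyngeal pouch, where Hoxa3 is needed for its formation in the mouse. HOX proteins bind DNA with partners of the TALE class (PBX, MEIS and PKNOX proteins), and retinoic acid and CDX factors are known inducers of the clusters.

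Promoter windows of RefSeq (build GRCm38.p6), 300 bases from 250 before to 50 after a gene start, matched 22 of the 39 genes with 24 windows. Those of Hoxb4 and Hoxb8 are printed because these genes of the Hoxb cluster differed in opposite directions between the lines, and those of Hoxa5 and Hoxd4 because both genes were higher in that line. Sequences run 5′ to 3′ on the gene's strand. Capitals mark matches on either strand to 4 motifs. The E-box, an element of the class that TFII-I is known to bind, was spelled CACGTG. The PBX-HOX site was spelled TGATNNAT and the TATA box TATAAA. The motif of the retinoic acid receptor was spelled AGGTCA. The windows are chr11:96318017-96318316 (+ strand) for Hoxb4, chr11:96281655-96281954 (+ strand) for Hoxb8, chr6:52204538-52204837 (- strand) for Hoxa5 and chr2:74721728-74722027 (+ strand) for Hoxd4.
Hoxb4: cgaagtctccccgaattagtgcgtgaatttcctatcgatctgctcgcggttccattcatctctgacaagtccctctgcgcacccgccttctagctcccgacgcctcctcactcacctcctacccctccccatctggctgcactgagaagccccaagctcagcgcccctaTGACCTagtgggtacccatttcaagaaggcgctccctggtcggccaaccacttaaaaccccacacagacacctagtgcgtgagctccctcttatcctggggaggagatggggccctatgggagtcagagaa
Hoxb8: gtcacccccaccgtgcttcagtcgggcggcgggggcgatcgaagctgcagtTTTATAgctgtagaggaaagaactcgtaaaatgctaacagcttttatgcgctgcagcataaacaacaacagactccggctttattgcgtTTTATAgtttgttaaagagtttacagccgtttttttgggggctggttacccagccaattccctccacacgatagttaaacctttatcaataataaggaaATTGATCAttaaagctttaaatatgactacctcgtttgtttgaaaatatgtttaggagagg
Hoxa5: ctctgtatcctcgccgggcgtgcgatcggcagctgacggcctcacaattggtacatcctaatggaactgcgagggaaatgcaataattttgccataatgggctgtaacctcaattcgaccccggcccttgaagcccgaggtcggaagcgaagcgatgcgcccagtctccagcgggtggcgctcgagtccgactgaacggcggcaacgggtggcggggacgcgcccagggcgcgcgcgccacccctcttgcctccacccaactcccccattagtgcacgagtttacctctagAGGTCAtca
Hoxd4: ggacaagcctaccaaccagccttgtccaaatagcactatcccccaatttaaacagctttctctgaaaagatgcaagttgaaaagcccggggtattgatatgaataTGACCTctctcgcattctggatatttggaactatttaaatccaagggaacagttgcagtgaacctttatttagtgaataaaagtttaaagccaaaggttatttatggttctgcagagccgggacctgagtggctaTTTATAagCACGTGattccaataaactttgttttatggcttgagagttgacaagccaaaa

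The Hoxb8 window held 2 TATA boxes and 1 PBX-HOX site, and the Hoxb4 window held neither. In the Hoxd4 window an E-box followed a TATA box, and its 4 CpG dinucleotides compared with 29 in the Hoxa5 window. Across the 24 Hox windows the median GC content was 57.7%, against 52.7% in all 32851 windows, and the median number of CpG dinucleotides was 14.5, against 7. The E-box was present in 20.8% of Hox windows (5 of 24, all of Hoxd genes) and 7.15% of all windows. PBX-HOX sites were present in 16.7% and 8.85%, retinoic acid receptor motifs in 29.2% and 16.3%, and TATA boxes in 16.7% and 13.6%. In the printed windows the marked matches do not overlap one another. A match of these letters is a description of the window only.

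The question put to the detection flags was which parts of each cluster were in use in these cells. Of the 39 genes, 18 were well above background on all 8 arrays, 16 on some and 5 on none (Hoxa11, Hoxa13, Hoxd1, Hoxd10 and Hoxd11). Among the 16, Hoxc9 was missed on δ untreated replicate 1 alone, where its spot lay in the damaged area. That array also keeps Hoxc9 out of the δ untreated count given below. In the Hoxa cluster 8 of 11 genes were above background on every array. Hoxa11 and Hoxa13, the genes at the tail end of that cluster, known for limb and genital development, were on none. The Hoxc cluster had 6 of 9 genes on every array, among them Hoxc13, which is known for its control of hair keratins. The Hoxb cluster had 4 of 10 (Hoxb2, Hoxb3, Hoxb4 and Hoxb6), and the Hoxd cluster had 0 of 9.

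By group, 29 of 39 Hox genes were well above background on both arrays in δ cells with doxycycline, 20 in δ untreated cells, 31 in β cells with doxycycline and 26 in β untreated cells. In the Hoxb cluster these counts were 7, 4, 9 and 10 of 10 genes in the same order of groups. The Hoxd counts were 5 and 1 of 9 genes in δ cells with and without doxycycline, and 4 and 0 of 9 in β cells with and without it. The number of all probes above background moved the same way with doxycycline, as given above. The Hoxd genes concerned were dim: Hoxd8 read between -5.39 and -4.79 and Hoxd13 between -5.68 and -4.84 over all 8 arrays, where the unit is log2 intensity relative to the array's 75th percentile. Their levels thus lay close to the detection limit in all 4 groups. Hoxd9 was above background on 1 array alone, β doxycycline replicate 2.

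**Figure D1:**
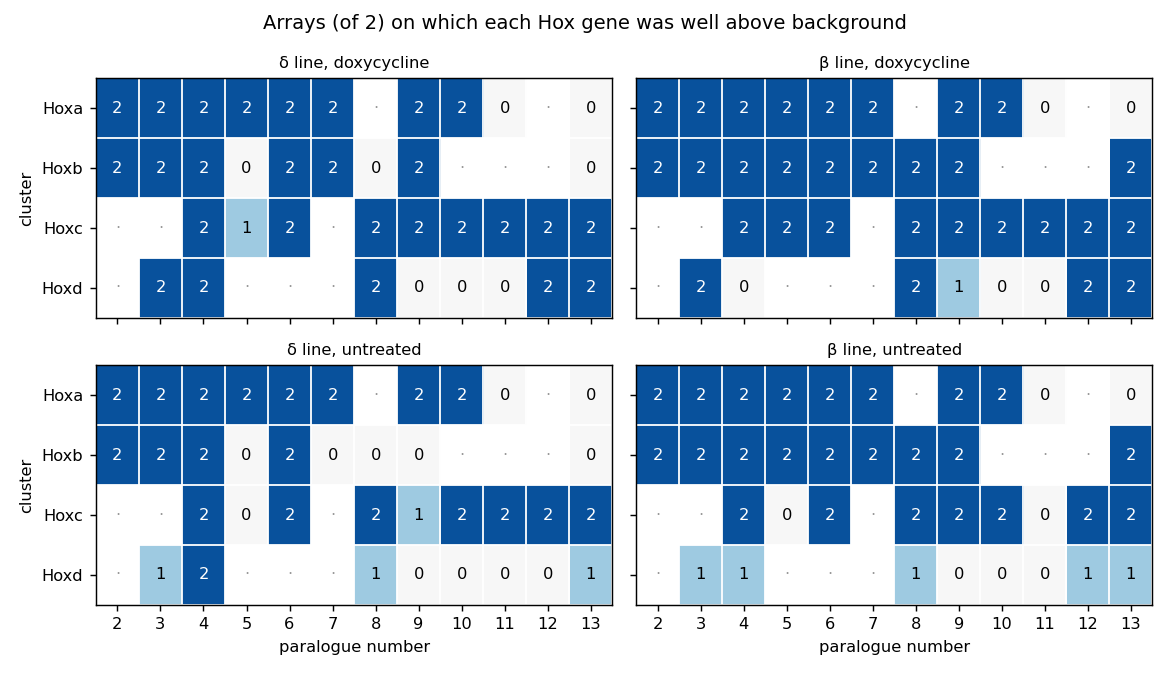
Each cell gives the number of arrays, of 2, on which a Hox gene's brightest probe was well above background, by cluster (rows) and paralogue number from 2 up (columns), in panels for the δ line (left) and β line (right) with doxycycline (top) and untreated (bottom). A dot marks a paralogue without a gene, and the Hoxb genes from Hoxb5 on are where the δ panels lose most cells relative to the β panels.

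The δ and β lines differed in their Hox genes far more than doxycycline changed them. Averaged over both conditions, 8 of the 33 tested Hox genes were higher in the δ line and 8 were lower (limma adjusted p under 0.05), where 24.6% of all 19023 genes were called, 15.2% higher and 9.37% lower. The 8 lower genes were Hoxb1, Hoxb5, Hoxb6, Hoxb7, Hoxb8, Hoxb9, Hoxb13 and Hoxc12, and the 8 higher genes were Hoxa2, Hoxa5, Hoxa10, Hoxb4, Hoxc6, Hoxc10, Hoxc11 and Hoxd4. The median absolute difference was 0.57 on the log2 scale over the 33 Hox genes and 0.21 over all genes. The 33 include genes undetected on every δ array. For doxycycline that median was also larger in Hox genes, at 0.265 against 0.173 (δ) and 0.209 against 0.168 (β). Between untreated replicates the median absolute difference was 0.305 in Hox genes against 0.185 (β) and 0.234 against 0.152 (δ). Between doxycycline replicates it was 0.148 against 0.15 (β) and 0.0955 against 0.0806 (δ). On all 4 δ arrays 8 Hox genes lay above all 4 β arrays and 7 lay below them, which is 24.2% and 21.2% of the 33 genes, where 15.5% and 10.5% of all genes did so.

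With doxycycline, 6 Hox genes were called higher in the δ line and 7 lower, where 15.3% of all genes were called, 9.75% higher and 5.51% lower. Without doxycycline, 6 were called higher and 8 lower, where 13.2% of all genes were called, 7.93% higher and 5.28% lower. With each array centred on its median, the split without doxycycline was 3 higher and 7 lower. The 13 calls with doxycycline became 7 without β doxycycline replicate 2, 7 without δ doxycycline replicate 1 and 8 without δ doxycycline replicate 2. The 14 calls without doxycycline became 9 without β doxycycline replicate 1, 7 without δ doxycycline replicate 1 and 8 without δ doxycycline replicate 2, through the shared estimate of the spread.

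**Figure D2:**
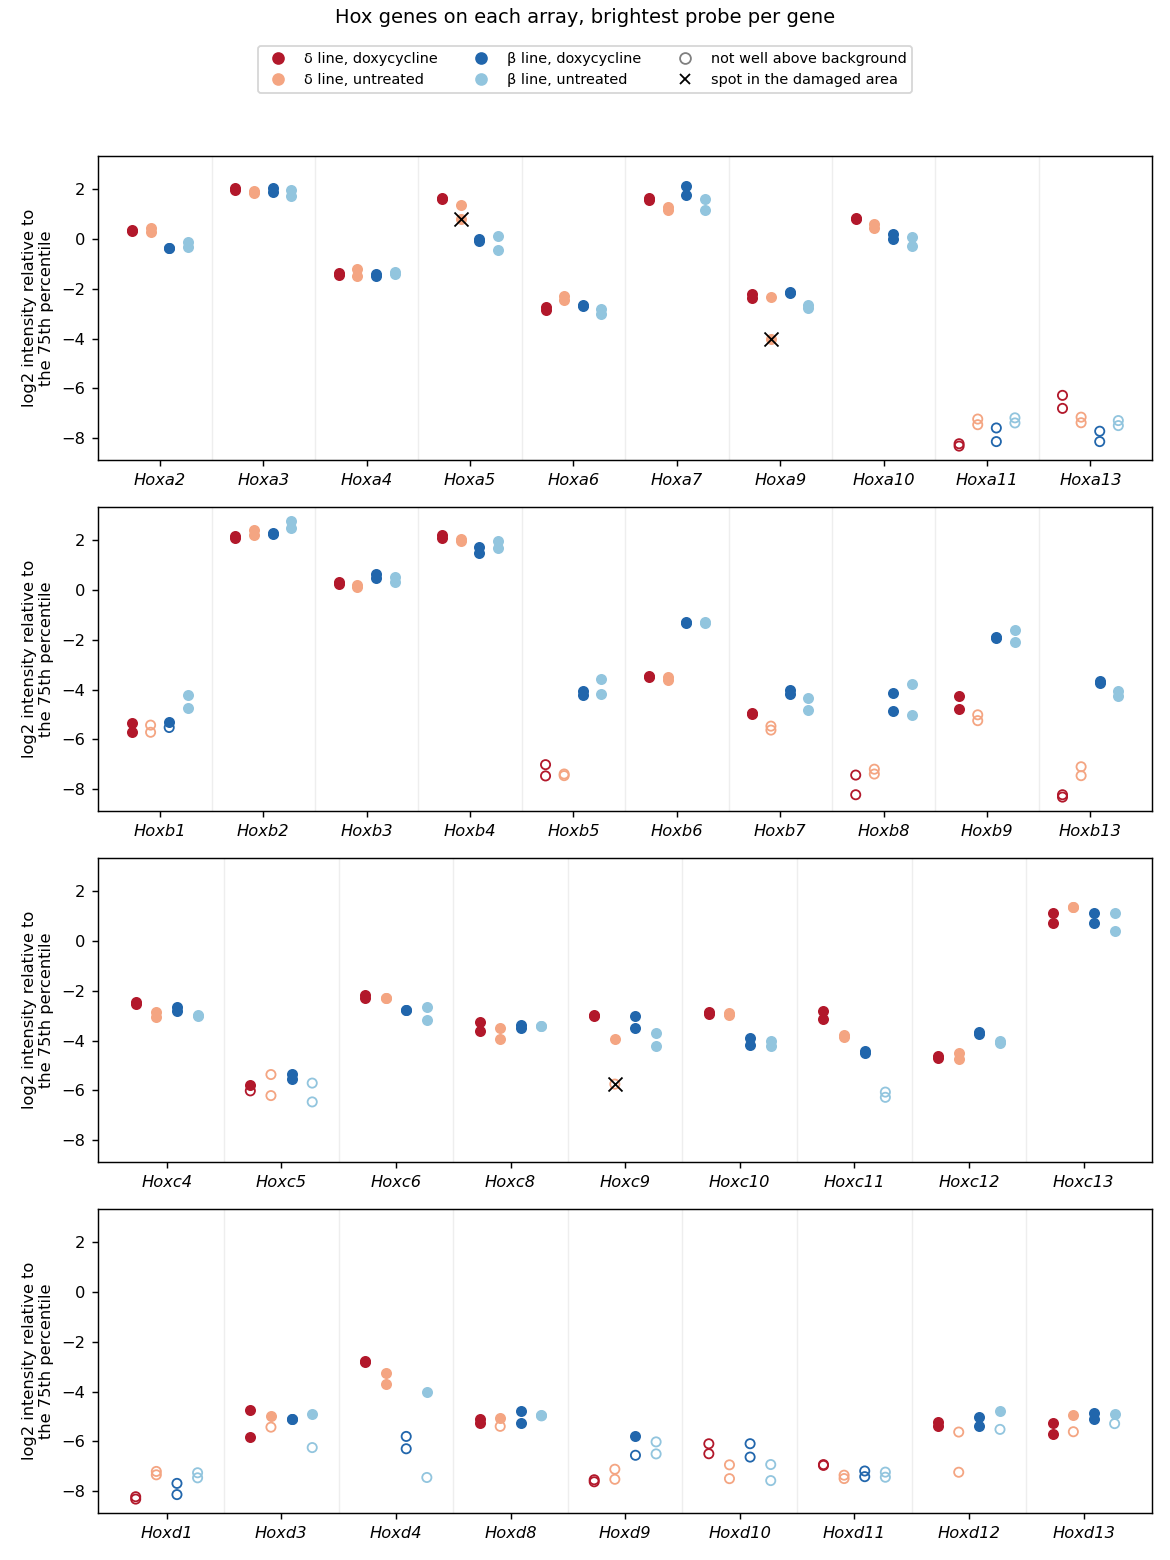
Log2 intensity relative to each array's 75th percentile for 38 Hox genes, 1 panel per cluster, with 1 point per array. Within a gene the groups run from δ doxycycline through δ untreated and β doxycycline to β untreated, open points were not well above background, and crosses mark spots in the damaged area. Hoxb5 to Hoxb13 sit lower in the δ line, Hoxa5, Hoxc10 and Hoxc11 sit higher, and levels of different genes cannot be set against each other.

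In the Hoxb cluster all 6 genes from Hoxb5 to Hoxb13 were lower in the δ line and Hoxb4 was higher. Of the genes with lower numbers, Hoxb1 was also called lower on average (-0.61, adjusted p = 0.0381), while Hoxb2 and Hoxb3 did not pass, although Hoxb3 was called lower once probes in deviant tiles were left out. Hoxb13, known for its role in the prostate and the tail, read -8.22 and -8.31 in δ cells with doxycycline, -7.10 and -7.45 in δ untreated cells, -3.75 and -3.67 in β cells with doxycycline and -4.27 and -4.07 in β untreated cells. It was above background on every β array and on no δ array. Its 2 values in δ cells with doxycycline equal those of Hoxa11 and Hoxd1, detected on no array. They are thus no measured level, and the test with doxycycline rests on them. The δ level was at least 4.71-fold lower with doxycycline (adjusted p = 3.26e-05) and at least 2.15-fold lower without it (adjusted p = 0.000111). These and all later bounds hold for the scanner software's background subtraction alone. Hoxb5, which acts in vagal neural crest, read -7.01 and -7.46 in δ cells with doxycycline, -7.45 and -7.39 in δ untreated cells, -4.21 and -4.07 in β cells with doxycycline and -3.56 and -4.17 in β untreated cells. Again no δ array and every β array was above background. Its δ level was at least 3.49-fold lower with doxycycline (adjusted p = 0.000784) and at least 2.66-fold lower without (adjusted p = 0.000407).

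Hoxb8, a gene used in myeloid progenitors and spinal cord, read -8.22 and -7.43 in δ cells with doxycycline, -7.19 and -7.39 in δ untreated cells, -4.86 and -4.13 in β cells with doxycycline and -3.77 and -5.01 in β untreated cells. Within each condition the β replicates lay further apart than those of any other Hoxb gene, yet the dimmest β array lay above the brightest δ array. A second, dimmer Hoxb8 probe was well above background on no array of either line. By the brightest probe, the δ level was at least 2.72-fold lower with doxycycline (adjusted p = 0.00843) and at least 1.84-fold lower without (adjusted p = 0.0133). The -8.22 on δ doxycycline replicate 1 equals the value of Hoxa11 and Hoxd1 there. Hoxb5, Hoxb8 and Hoxb13 passed the filter through the β arrays alone. Their adjusted p-values set β levels against undetected δ signals, so they measure no δ level. The Hoxb8 call without doxycycline was lost with normal-exponential correction (adjusted p = 0.0521). The call with doxycycline was lost without β doxycycline replicate 2 or δ doxycycline replicate 1, where the highest adjusted p was 0.0695, and the call averaged over both conditions was kept in all 16 alternatives run. Hoxb9, which patterns the rib cage, read -4.76 and -4.27 in δ cells with doxycycline, -5.01 and -5.24 in δ untreated cells, -1.86 and -1.93 in β cells with doxycycline and -1.60 and -2.09 in β untreated cells. It was above background on both δ arrays with doxycycline and on neither untreated δ array. With doxycycline the δ level was 6.15-fold lower (adjusted p = 0.00123), and without it 9.72-fold lower (adjusted p = 0.000458). The latter is the fitted fold, since no dim value was raised and the bound equals it. That difference without doxycycline was -1.84 on the log2 scale with normal-exponential correction of the background.

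Hoxb6, a trunk mesoderm gene, was measured on every array and gives the firmest size. It read -3.45 and -3.48 in δ cells with doxycycline, -3.49 and -3.62 in δ untreated cells, -1.33 and -1.29 in β cells with doxycycline and -1.31 and -1.26 in β untreated cells. The 4 δ arrays and the 4 β arrays each fell close together, with a wide gap between the lines. The difference averaged -2.21 ± 0.06 on the log2 scale (SE, adjusted p = 9.55e-06), a 4.63-fold lower level in the δ line, and ranged from -2.24 to -1.69 over 17 alternatives. Hoxb7, expressed in the ureteric bud, read -4.92 and -4.97 in δ cells with doxycycline, -5.62 and -5.46 in δ untreated cells, -4.00 and -4.16 in β cells with doxycycline and -4.82 and -4.31 in β untreated cells. Its δ level was 1.82-fold lower with doxycycline (adjusted p = 0.0271) and at least 1.63-fold lower without (adjusted p = 0.0188), the smallest fitted difference of the 6 genes. The call with doxycycline was kept in 10 of 17 alternatives (highest adjusted p = 0.153) and was lost without any 1 of the 4 doxycycline arrays, with normal-exponential correction, quantile normalization or median centring. The call without doxycycline was kept in 12 of 17 (highest adjusted p = 0.305) and was lost without either δ doxycycline array or δ untreated replicate 1, with normal-exponential correction and with only the 4 arrays compared.

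At the other end of the cluster, Hoxb4, known for expanding blood stem cells, read 2.20 and 2.10 in δ cells with doxycycline, 2.07 and 1.97 in δ untreated cells, 1.73 and 1.48 in β cells with doxycycline and 1.68 and 1.96 in β untreated cells. All 4 δ arrays lay above all 4 β arrays, with the lowest δ array and the highest β array almost level. The average difference was 0.37 ± 0.10 (SE, adjusted p = 0.0383). It passed in 11 of 17 alternatives, with a highest adjusted p of 0.147, and was lost without β doxycycline replicate 2, either δ doxycycline array, β untreated replicate 1 or δ untreated replicate 1, and with no filter on dim probes. Hoxb2 and Hoxb3, genes of the hindbrain and pharyngeal arches, had average differences of -0.24 ± 0.10 (adjusted p = 0.129) and -0.28 ± 0.08 (adjusted p = 0.0529). Hoxb1, which specifies the facial motor nucleus, was dim. It read -5.72 and -5.33 in δ cells with doxycycline, -5.42 and -5.71 in δ untreated cells, -5.52 and -5.28 in β cells with doxycycline and -4.72 and -4.22 in β untreated cells. The untreated β arrays stood above all others, and the δ level without doxycycline was at least 1.74-fold lower (adjusted p = 0.028), while the difference with doxycycline was -0.12 ± 0.23 (adjusted p = 0.763). Its averaged call held in 5 of 16 alternatives, with a highest adjusted p of 0.301.

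Averaged over both conditions, 3 of 9 tested Hoxa genes were higher in the δ line and 0 lower. Hoxa5, needed for lung development in the mouse, read 1.63 and 1.67 in δ cells with doxycycline, 0.79 and 1.39 in δ untreated cells, -0.09 and 0.02 in β cells with doxycycline and -0.43 and 0.13 in β untreated cells. Every δ array was above every β array, including the lower value from the damaged area. The averaged difference was 1.46 ± 0.18 (SE, adjusted p = 0.00237, 2.76-fold), and 1.61 ± 0.15 (adjusted p = 0.0011) without δ untreated replicate 1. Hoxa2, which sets the identity of the second pharyngeal arch, read 0.38 and 0.34 in δ cells with doxycycline, 0.45 and 0.30 in δ untreated cells, -0.34 and -0.36 in β cells with doxycycline and -0.30 and -0.11 in β untreated cells. Its averaged difference was 0.64 ± 0.08 (SE, adjusted p = 0.00207, 1.56-fold). Hoxa10, known from the uterus, read 0.86 and 0.80 in δ cells with doxycycline, 0.63 and 0.45 in δ untreated cells, 0.02 and 0.21 in β cells with doxycycline and -0.28 and 0.08 in β untreated cells, again with no overlap. The averaged difference was 0.68 ± 0.11 (SE, adjusted p = 0.00646, 1.6-fold).

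Hoxa6 passed without doxycycline alone, at -2.43 and -2.27 in δ untreated cells and -2.99 and -2.79 in β untreated cells (0.54 ± 0.12, adjusted p = 0.0346), and held in 6 of 18 alternatives, with a highest adjusted p of 0.211. With doxycycline it read -2.71 and -2.86 in δ cells and -2.63 and -2.69 in β cells, where the sign was the opposite. Hoxa3, the pouch gene, read between 1.72 and 2.05 on all 8 arrays, and its averaged difference was 0.05 ± 0.08 (adjusted p = 0.693). Hoxa4 was as close, at 0.04 ± 0.08 (adjusted p = 0.785). Hoxa7 had an averaged difference of -0.25 ± 0.13 (adjusted p = 0.239). Hoxa9 read -4.00 on the damaged δ untreated array and -2.34 on the other, and its averaged difference was -0.30 ± 0.34 (adjusted p = 0.56) with the damaged array and 0.11 ± 0.09 (adjusted p = 0.41) without it.

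In the Hoxc cluster 3 of 9 genes were higher in the δ line on average and 1 was lower. Hoxc10, a gene of lumbar motor neurons, read -2.93 and -2.85 in δ cells with doxycycline, -2.95 and -2.89 in δ untreated cells, -4.17 and -3.88 in β cells with doxycycline and -4.21 and -4.00 in β untreated cells. The δ arrays lay close together and far above the β arrays. The averaged difference was 1.16 ± 0.09 (SE, adjusted p = 0.000473, 2.24-fold). Its neighbour Hoxc11, a gene of the hind limb level, read -3.14 and -2.81 in δ cells with doxycycline, -3.84 and -3.76 in δ untreated cells, -4.49 and -4.40 in β cells with doxycycline and -6.06 and -6.27 in β untreated cells. Only the β untreated arrays were not well above background. The δ level was 2.77-fold higher with doxycycline (adjusted p = 0.0019) and at least 2.79-fold higher without (adjusted p = 0.000274).

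The next gene of that cluster, Hoxc12, went the other way. It read -4.62 and -4.70 in δ cells with doxycycline, -4.50 and -4.75 in δ untreated cells, -3.64 and -3.71 in β cells with doxycycline and -4.07 and -4.03 in β untreated cells. All δ arrays lay below all β arrays, by an average of -0.78 ± 0.08 (SE, adjusted p = 0.00123, 1.72-fold lower). Hoxc6 read -2.17 and -2.29 in δ cells with doxycycline, -2.30 and -2.28 in δ untreated cells, -2.77 and -2.76 in β cells with doxycycline and -3.15 and -2.66 in β untreated cells. The averaged difference of 0.57 ± 0.12 (SE, adjusted p = 0.0156) was lost without any 1 of the 4 doxycycline arrays, with a highest adjusted p of 0.0757. Hoxc8 (-0.16 ± 0.13, adjusted p = 0.429), Hoxc13 (0.30 ± 0.20, adjusted p = 0.326) and Hoxc4 (0.15 ± 0.08, adjusted p = 0.248) passed no test between the lines. Hoxc9 read -5.74 and -3.95 on the damaged and the other δ untreated array, and its averaged difference of -0.31 ± 0.40 (adjusted p = 0.606) was 0.14 ± 0.18 (adjusted p = 0.619) without the damaged array.

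Hoxd4, which patterns the neck vertebrae and responds to retinoic acid, was the 1 called gene of the 5 tested in the Hoxd cluster. It read -2.82 and -2.75 in δ cells with doxycycline, -3.71 and -3.23 in δ untreated cells, -5.80 and -6.29 in β cells with doxycycline and -4.03 and -7.45 in β untreated cells. All δ arrays lay above all β arrays, but the β untreated replicates stood far apart and 1 of them was above background. With doxycycline the δ level was at least 7.7-fold higher but did not pass the test (adjusted p = 0.081). The averaged difference was 2.76 ± 0.71 (SE, adjusted p = 0.0355), and was 3.62 (adjusted p = 0.000702) without β untreated replicate 1 and 1.91 (adjusted p = 0.00385) without β untreated replicate 2. It did not pass without any 1 of the 4 doxycycline arrays or without δ untreated replicate 2, nor with no filter on dim probes, with a highest adjusted p of 0.11. Differences of Hoxd3, Hoxd8, Hoxd12 and Hoxd13 lay between -0.69 and 0.09 and passed no test.

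**Figure D3:**
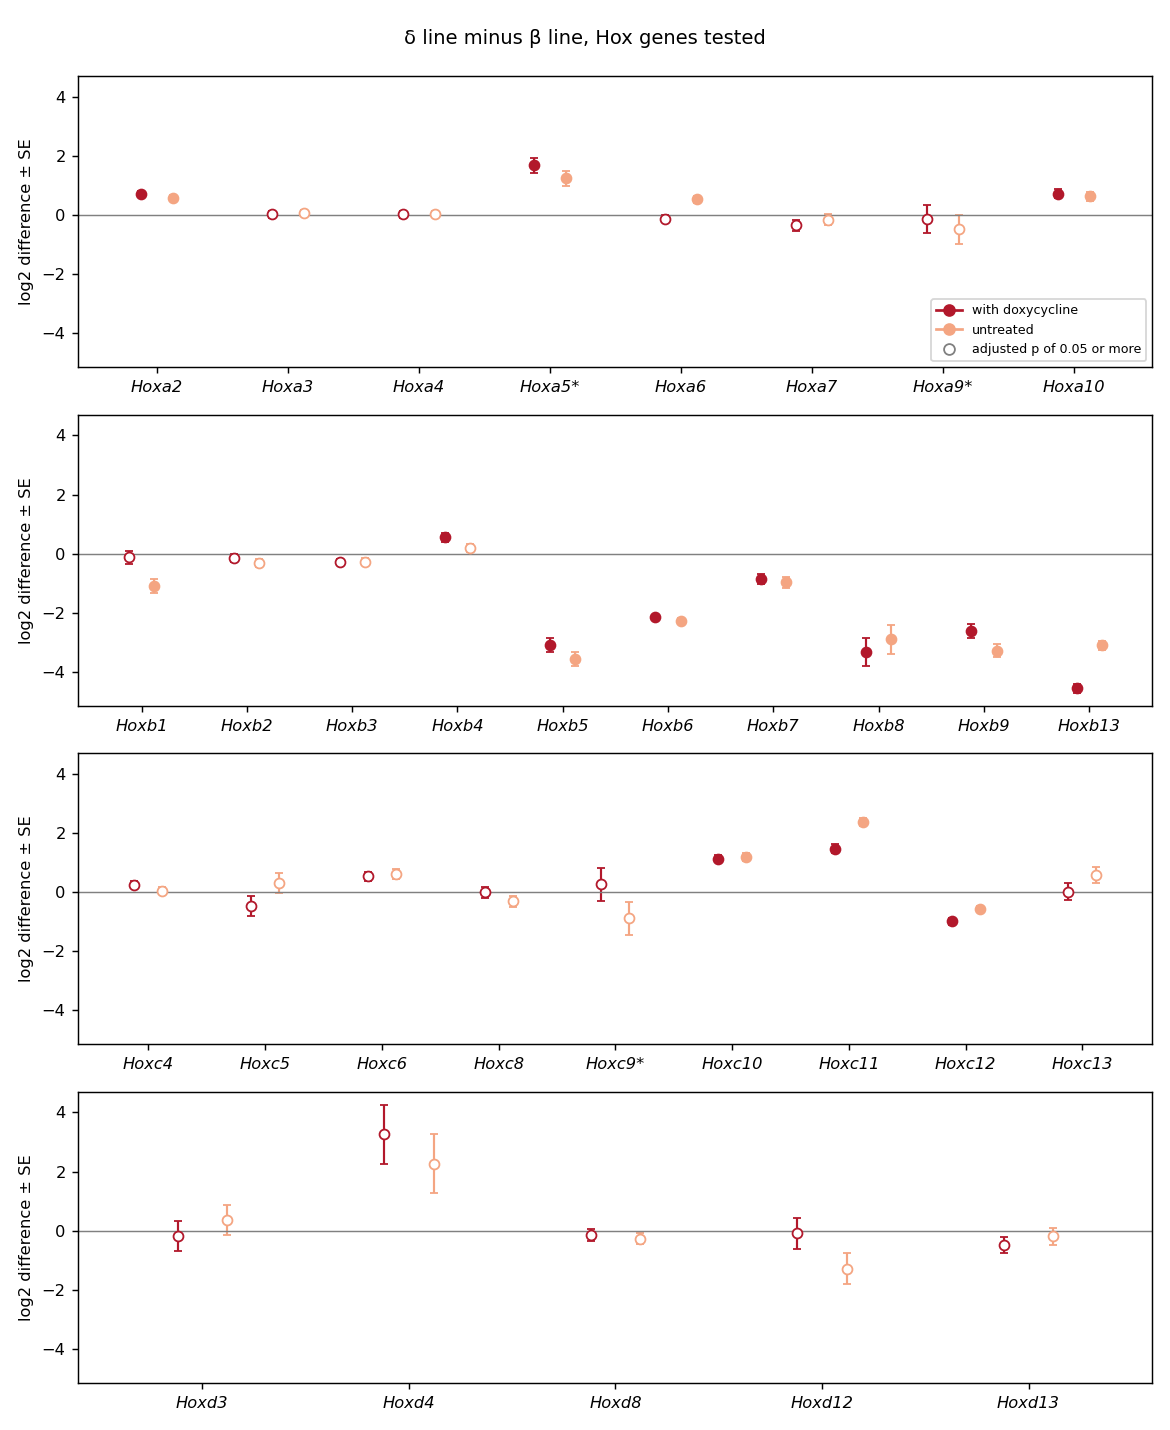
Fitted log2 difference, δ line minus β line, with its SE, for 32 tested Hox genes by cluster, with doxycycline (dark) and untreated (light). Filled points passed an adjusted p of 0.05, asterisks mark probes in the damaged area, and differences of genes that were not well above background in a line (Hoxb5, Hoxb8 and Hoxb13 in the δ line) are fitted values whose bounds are smaller. Hoxb5 to Hoxb13 lie below 0 in both conditions.

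The dim genes' fitted sizes and bounds depended on the background correction. With normal-exponential correction in place of the scanner software's subtraction, the averaged difference was -1.31 for Hoxb13, -0.95 for Hoxb5, -0.87 for Hoxb8, -1.75 for Hoxb9, -0.33 for Hoxb7, -0.36 for Hoxc12, 0.87 for Hoxc11, 0.64 for Hoxc10 and 1.14 for Hoxd4, these 9 in the same direction and still past the test. Hoxb1, also dim, was -0.20 with that correction and no longer passed (adjusted p = 0.301). With doxycycline, that correction gave -1.47 for Hoxb13 and -0.94 for Hoxb5, smaller than their bounds of 2.23 and 1.81 on the log2 scale. Hoxb8 with doxycycline, at -0.92, was also smaller than its bound of 1.44. Without doxycycline, Hoxb5 at -0.96 was also smaller than its bound of 1.41, while Hoxb13 at -1.14 stayed beyond its bound of 1.11. Also smaller than their bounds without doxycycline were Hoxb8 (-0.81 against 0.88), Hoxb7 (-0.24 against 0.705) and Hoxb1 (-0.17 against 0.80). The same held for Hoxb9 (-1.84 against 3.28) and Hoxc11 (1.05 against 1.48). The call averaged over both conditions was kept in every alternative run for 12 of the 16 genes, the other 4 being Hoxb1, Hoxb4, Hoxc6 and Hoxd4. Dimmer second probes were tested for 5 genes among 44321 probes. For Hoxb9 the second probe gave an averaged difference of -1.76 ± 0.27 (adjusted p = 0.00915) and for Hoxa10 0.43 ± 0.08 (adjusted p = 0.0159), both in the direction of the brighter probe. Without doxycycline alone, the second Hoxb9 probe gave -1.25 ± 0.38 and did not pass (adjusted p = 0.124). Second probes of Hoxa3 (0.13 ± 0.11, adjusted p = 0.455), Hoxa9 (0.47 ± 0.13, adjusted p = 0.0595) and Hoxb3 (0.01 ± 0.12, adjusted p = 0.972) did not pass. With probes in deviant tiles left out, which removes the brightest Hoxa9 probe, Hoxa9 was called higher in the δ line on average.

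Doxycycline was compared with no treatment within each line to ask whether inducing the mutant moved Hox genes. In the δ line 0 of 33 Hox genes passed, where 0.0736% of all genes were called, 0.021% higher and 0.0526% lower. In the β line 1 Hox gene rose and 0 fell, where 0.247% of all genes were called, 0.116% higher and 0.131% lower. At an unadjusted p under 0.05 there were 7 Hox genes in each line (21.2%), where 15% of all genes passed that level in the δ line and 18.2% in the β line. That 1 gene was Hoxc11, which read -4.49 and -4.40 in β cells with doxycycline and -6.06 and -6.27 in β untreated cells. Both treated arrays were above background and neither untreated array was, so the rise was at least 1.79-fold. The fitted difference was 1.73 ± 0.14 on the log2 scale (SE, adjusted p = 0.036), or 3.31-fold. In the δ line the gene read -3.14 and -2.81 with doxycycline and -3.84 and -3.76 without, a difference of 0.83 ± 0.14 that did not pass (adjusted p = 0.131). The difference between the lines' responses was -0.90 ± 0.20 (adjusted p = 0.649). The β call was kept in 10 of 18 alternatives. It was lost without any 1 of the 4 doxycycline arrays, where adjusted p was 0.0983 and 0.191 without β replicates 1 and 2 and 0.171 and 0.159 without δ replicates 1 and 2, and with normal-exponential correction the difference was 0.81 (adjusted p = 0.0848).

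Among the other Hox genes with the smallest p in the β line, Hoxb1 had a difference of -0.92 ± 0.23 (adjusted p = 0.119), Hoxc12 0.38 ± 0.11 (adjusted p = 0.167) and Hoxb13 0.46 ± 0.15 (adjusted p = 0.185). In the δ line they were Hoxb13 at -0.99 ± 0.15 (adjusted p = 0.0945), with no δ array above background, Hoxc4 at 0.46 ± 0.12 (adjusted p = 0.223) and Hoxa6 at -0.44 ± 0.12 (adjusted p = 0.239). The δ means of Hoxb13, -8.27 with doxycycline and -7.27 without, were also those of Hoxd1, which was detected on no array. Its -0.99 is thus no measured change of the gene. The test of the difference between lines called 0 Hox genes, with a lowest adjusted p of 0.562, where 0.00526% of all genes were called. At an unadjusted p under 0.05 there were 5 Hox genes (15.2%), where 7.53% of all genes passed that level. Doxycycline arrays did not overlap untreated arrays in the δ line for 15 Hox genes upward and 5 downward, where 30.4% and 27.6% of all genes did so. In the β line they did not overlap for 10 upward and 3 downward, where 26.6% and 20.3% of all genes did so. Leaving out δ untreated replicate 2 leaves the damaged array alone in its group. Calls in the δ line then rose over all genes, Hox genes among them, and are not read as a Hox response.

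**Figure D4:**
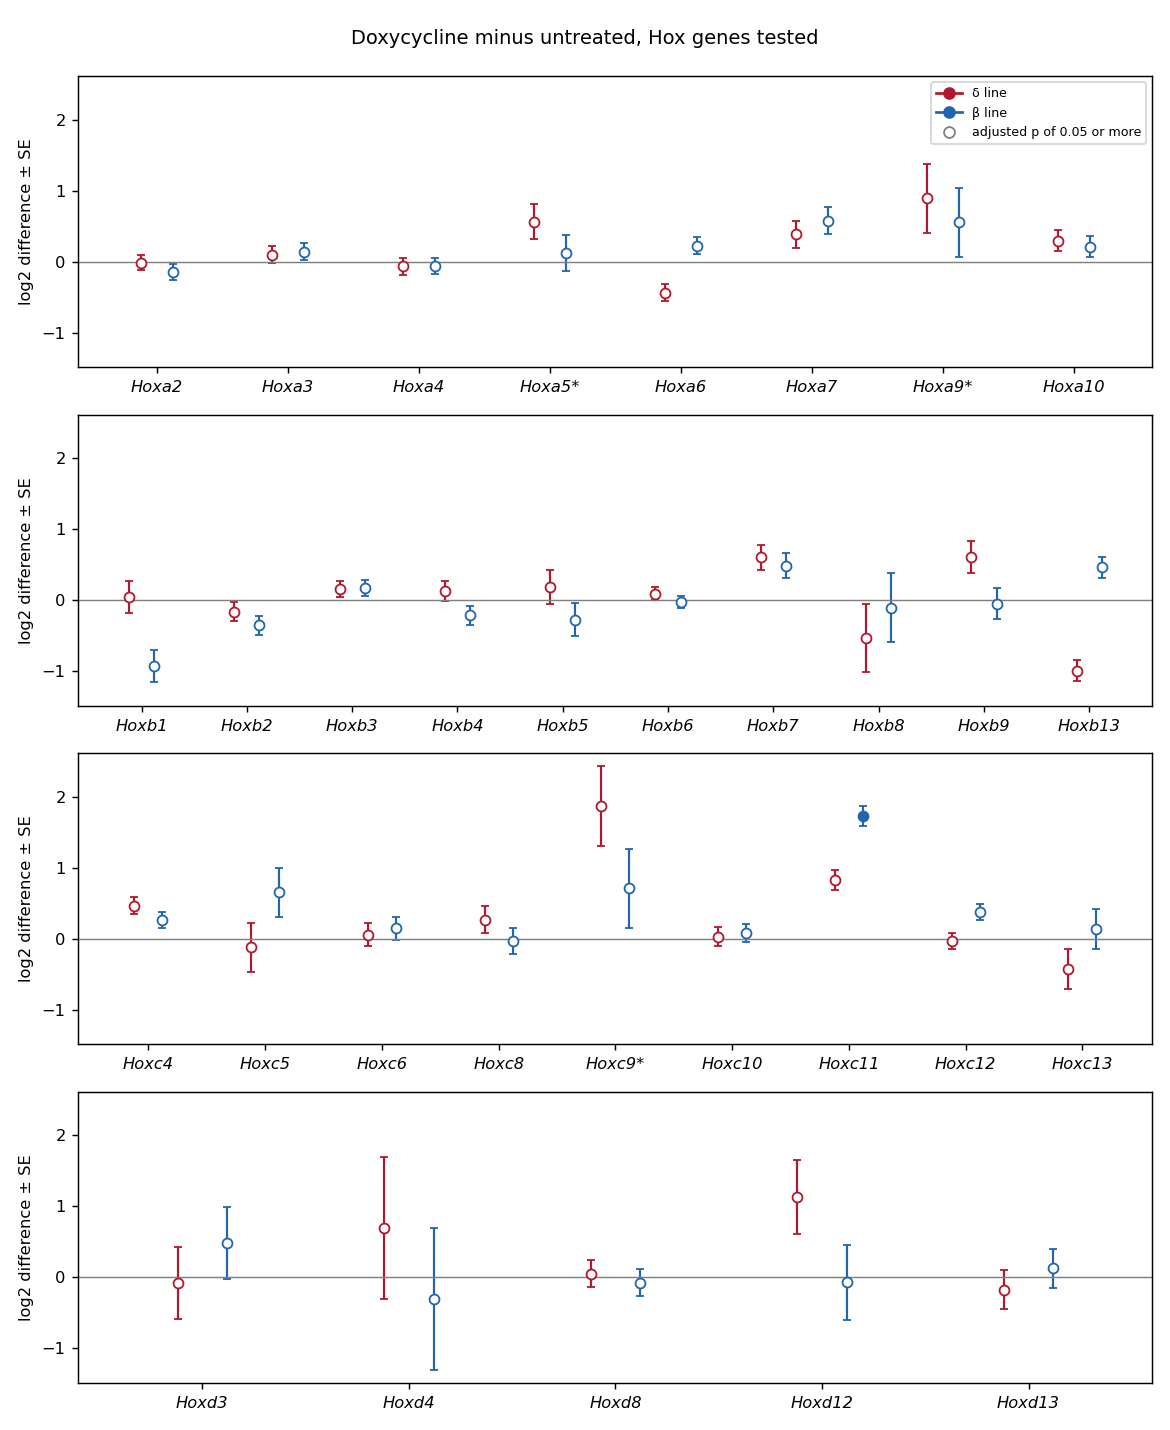
Fitted log2 difference, doxycycline minus untreated, with its SE, for 32 tested Hox genes by cluster in the δ line (red) and the β line (blue). Filled points passed an adjusted p of 0.05, which Hoxc11 in the β line alone did, asterisks mark probes in the damaged area, and the wide SE bars of Hoxd4 come with replicates that lay far apart.

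The partners and regulators of Hox genes were read from lists chosen with earlier results of these data known, and their counts stand beside the 15.2% of all genes called higher and 9.37% called lower between the lines on average. Of 9 TALE cofactors, all above background on every array, 5 were higher in the δ line (Meis1, Meis2, Pbx2, Pbx3 and Pknox2) and 0 lower, with a median difference of 0.31 against -0.01 over all genes. Meis1, a DNA-binding partner of many HOX proteins, read 3.09 and 3.14 in δ cells with doxycycline, 2.85 and 2.69 in δ untreated cells, 2.12 and 2.23 in β cells with doxycycline and 1.73 and 1.81 in β untreated cells. All δ arrays lay above all β arrays, by 0.97 ± 0.07 (SE, adjusted p = 0.000329). The averaged difference was 0.97 ± 0.07 (adjusted p = 0.000376) for Pbx2 and 1.12 ± 0.09 (adjusted p = 0.000421) for Pknox2. Of 20 measured Polycomb genes, 8 were higher and 1 lower, with a median of 0.28. Jarid2 (1.08 ± 0.09, adjusted p = 0.00048), Ezh1 (0.66 ± 0.09, adjusted p = 0.00347) and Mtf2 (0.52 ± 0.09, adjusted p = 0.00747), all members of the complex that methylates histones at silent Hox clusters, were the higher genes with the smallest p. Its core subunit Eed was the lower gene (-0.25 ± 0.06, adjusted p = 0.031), a call kept in 8 of 17 alternatives.

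Of 13 Trithorax genes and related activators 4 were higher and 0 lower, led by the histone demethylase gene Kdm6b (0.69 ± 0.07, adjusted p = 0.00149). Mllt3 (0.56 ± 0.11, adjusted p = 0.0167) and Aff4 (0.26 ± 0.06, adjusted p = 0.0244), of the transcription elongation machinery, followed and kept their calls in 13 and 9 of 17 alternatives. Of 15 tested inducers of Hox genes, 3 were higher and 2 lower. The retinoic acid receptor gene Rarb was 0.65 ± 0.07 higher (adjusted p = 0.00151), and Cyp26b1, whose enzyme breaks down retinoic acid, was lower (-0.76 ± 0.06, adjusted p = 0.00053). Rxra, the common partner of retinoic acid receptors, was higher by 0.40 ± 0.07 (adjusted p = 0.0108) but by 0.08 as a mean over its probes, where it did not pass. Aldh1a1, which makes retinoic acid, was lower (-0.33 ± 0.08, adjusted p = 0.0328), in 9 of 17 alternatives. Cdx2 and Cdx4 were above background on no array.

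Of 20 other genes of the clusters on the list, 8 had a named probe and 7 were tested. Hoxb5os, an antisense RNA at Hoxb5, read 2.62 and 2.75 in δ cells with doxycycline, 2.94 and 2.61 in δ untreated cells, 3.01 and 3.48 in β cells with doxycycline and 2.53 and 2.68 in β untreated cells. It was well above background on every array of both lines, with an averaged difference of -0.19 ± 0.14 (adjusted p = 0.353), whereas Hoxb5 itself was above background on the β arrays alone. Hoxd3os1, an antisense RNA beside Hoxd3 and Hoxd4, read -3.05 and -2.94 in δ cells with doxycycline, -4.43 and -3.31 in δ untreated cells, -5.34 and -4.89 in β cells with doxycycline and -5.11 and -5.91 in β untreated cells. Its δ arrays all lay above its β arrays, as those of Hoxd4 did, by 1.88 ± 0.30 (SE, adjusted p = 0.00668), although its spot on δ untreated replicate 1 was in the damaged area. Of 11 genes flanking the clusters 3 were higher and 2 lower. Calcoco1, next to the Hoxc cluster, was higher by 1.13 ± 0.09 (adjusted p = 0.000491) and Hibadh, beyond the tail end of Hoxa, by 0.49 ± 0.07 (adjusted p = 0.00427), and Lnpk, beyond the tail end of Hoxd, was lower (-0.42 ± 0.07, adjusted p = 0.00622). Smug1 (0.27 ± 0.08, adjusted p = 0.0488) and Skap1 (-0.26 ± 0.07, adjusted p = 0.0406) kept their calls in 9 and 4 of 17 alternatives. With doxycycline in either line, 0 genes of these lists passed.

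**Figure D5:**
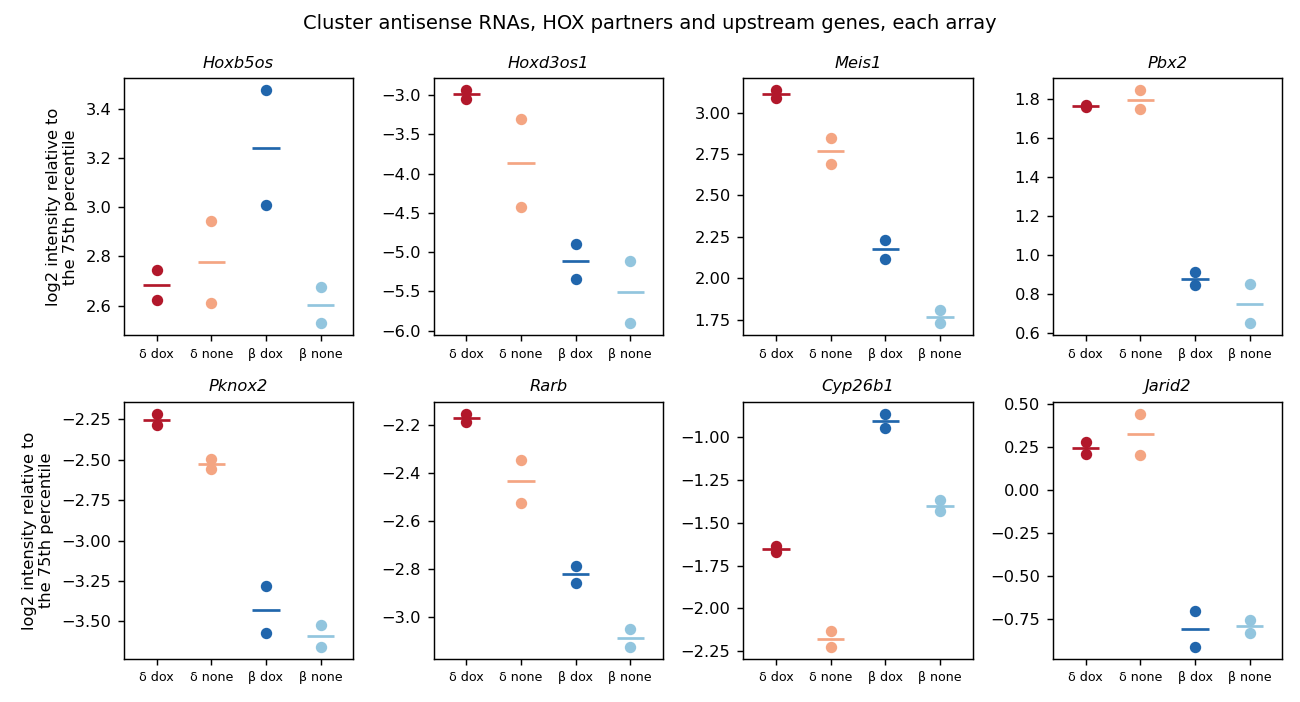
Log2 intensity relative to each array's 75th percentile for 8 genes, with 1 point per array and a bar at each group's mean. Groups run from δ doxycycline and δ untreated to β doxycycline and β untreated, and each panel has its own axis. Hoxb5os overlaps between the lines, Hoxd3os1, Meis1, Pbx2, Pknox2, Rarb and Jarid2 lie higher in the δ line, and Cyp26b1 lies lower.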

How the data were processed

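Total RNA of 8 samples was labelled with Cy3 and hybridised to 1-colour Agilent arrays. The deposited values are spot intensity values that the authors made, per the file headers, with version 11.5.1.1 of Agilent Feature Extraction, background-subtracted and detrended, with no normalization between arrays. The flags for background are deposited too. The step of multiplicative detrending was uneven, with a root mean square of 0 on 3 of the doxycycline arrays and 0.0671 to 0.126 on the others.

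Log2 intensity was averaged over unflagged spots of a probe (56605 probes, 98 left out), and each array's 75th percentile over probes was subtracted. The files hold no gene names, so 32931 probes were named through their accessions in a RefSeq table of assembly GRCm38.p6, whose coordinates are not those of the files' mm9. A probe was kept if 1 group or more had it well above background on both arrays, and the brightest represented each gene. Group means were fitted over all 8 arrays with limma 3.58.1 (R 4.3.3, lmFit and eBayes, 4 residual degrees of freedom), with Benjamini-Hochberg adjustment over 19023 genes and a threshold of 0.05. Simulated data were used to test the fit.

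Where the software left a gene below its background test on each array of a group, a lower bound replaces the fold. There the brighter group's mean is divided by the dim group's, after raising any dim value that lies under the array's lowest detected probe to that probe's signal. The bound holds for the software's background subtraction alone. With so few arrays, precision is limited. Replicates of a group correlated at 0.994 to 0.997 across genes, 0.965 for δ untreated and 0.993 there without deviant tiles, and none were identical. Array numbers in the titles are slide columns; deviations of same-numbered arrays correlated at 0.0759 in the δ line and 0.0185 in the β line.

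Hox genes are described, apart from 1 not reported here, with tests for genes past the threshold and up to 4 genes of smallest p per comparison, and from each list up to 3 genes per direction. The members and lists were chosen with earlier results of these data known. Normal-exponential correction used the spots' median signals, since mean signals are not used here.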

Additional observations from a re-analysis of the deposited data

How the results depend on the processing

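Between the lines, the Hox count averaged over both conditions was 16 and stayed within 1.5 times of that except with the filter on all arrays (a probe must be above background on each), which removes genes dim in 1 line, at 9. That filter gave 7 of 13 with doxycycline and 8 of 14 without. The count without doxycycline was 8 with normal-exponential correction and 7 with only the 4 arrays compared. Leaving out 1 array gave 12 to 18 on average, 7 to 15 with doxycycline and 7 to 15 without. Over all genes these ranges were 2382 to 5624 (4684), 671 to 3225 (2903) and 1388 to 3812 (2513), and the 4 arrays alone gave 918 without doxycycline.

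Calls for doxycycline moved more. In the β line the 1 Hox call became 0 with normal-exponential correction, without multiplicative detrending, with no filter, with the filter on all arrays and with the slide column as a replicate block, and 2 without deviant tiles (Hoxa9 added). Leaving out 1 array gave 0 to 1. In the δ line 0 became 3 with no filter and 0 to 7 with 1 array left out, and for the difference 0 to 5. The 47 genes of the β line were 19 with normal-exponential correction, 0 without multiplicative detrending, 14 with median centring, 2 with no filter, 333 with the filter on all arrays, 240 with an intensity trend, 278 without deviant tiles, 0 with the replicate block and 0 to 203 with 1 array left out. In the same order the 14 of the δ line were 5, 1, 7, 803, 44, 25, 60, 1 and 1 to 1684, with 31 as a mean over probes and 1 from the 4 arrays alone. For the difference 1 became 0 with normal-exponential correction, the filter on all arrays, an intensity trend or the replicate block, 2 without deviant tiles, and 4 to 1117 with 1 array left out. The causes were not tested.

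The array numbers are slide columns and do not pair samples. The block leaves no estimate between the lines, since each column holds 1 line. Values that turned were small: with normal-exponential correction Hoxb13 for doxycycline in the δ line (0.023) and Hoxb1 for the difference (-0.076), and Gsx2 between the lines, which lay between -1.72 and 0.17 with 1 array left out (0.17 without δ untreated replicate 1). The 20 alternative detection counts, with the flag for positive and significant signal, any probe, no deviant tiles or 1 array left out, stayed within 1.5 times. Naming by accession alone is how probes were named and gave no alternative. Where both lines were near background, levels could not be ordered.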

Other observations

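Genes that act beside Hoxa3 in the pharyngeal pouch were read from a list of 8, of which 7 were tested and Tbx1 was above background on no array. Foxn1, the master regulator of thymic epithelium, read -4.87 and -4.79 in δ cells with doxycycline, -4.38 and -4.23 in δ untreated cells, -4.53 and -4.80 in β cells with doxycycline and -4.56 and -4.87 in β untreated cells. It was above background on all 8 arrays.

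The 3 ParaHox genes, relatives of the Hox genes outside the clusters, passed no test between the lines. Gsx1 had an averaged difference of -0.39 ± 0.15 (adjusted p = 0.112) and Gsx2 of -0.77 ± 0.99 (adjusted p = 0.609). Pdx1, the pancreas regulator, was above background on all 8 arrays.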
